A study of Rattus norvegicus with 12 samples.

Results

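Mdm2, Cdkn1a, Ccng1, Gadd45a, Gadd45b, Sesn1 and Tp53inp1 were grouped as targets of p53 in the response to DNA damage and other stress. Their expression levels were followed in the left ventricle of rats with and without myocardial infarction (MI). Control of each gene by p53 was not tested. The 7 genes were taken by their symbols from the 34599 genes of the count table, and all 7 passed the filter on low counts, as did 15101 genes in all. Total RNA was sequenced from the left ventricle of 12 male SD rats (6 weeks old when bought) 1 day after surgery, with 4 rats in each of 3 groups. Sham rats had their chest opened without ligation of the left anterior descending (LAD) coronary artery, and MI rats had the artery ligated and received no patch. The iCarP+/Light+ rats had the same ligation, after which Chlorella (a green microalga that photosynthesizes) was injected into the infarct, the photonic patch iCarP was glued onto the epicardium and the heart was illuminated. Alga, patch, adhesive and light were thus applied together and cannot be told apart in these rats, and rats with an unlit patch were not analysed here. Per the labels the infarct region was collected, and the matching region of Sham rats is not given in the sources used here. RNA of infiltrating cells was measured together with RNA of the heart's own cells.

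The p53 protein is a transcription factor that is held at a low level by Mdm2, a ubiquitin ligase whose gene p53 itself activates. When p53 accumulates, Cdkn1a (the inhibitor of cyclin-dependent kinases known as p21) and the Gadd45 proteins slow the cell cycle and take part in the stress response, Ccng1 (cyclin G1) feeds back on p53 through Mdm2, Sesn1 (sestrin 1) restrains the growth kinase complex mTORC1, and Tp53inp1 is a nuclear protein with a part in autophagy and cell death. Most of these genes also respond to signals other than p53, among them nutrient stress, low oxygen and inflammatory cytokines.

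Promoter sequences were available for 6 of the 7 genes in the RefSeq table of the rat build GRCr8, and the 250 bases before the annotated start were searched on both strands for the 10-base p53 half-site consensus, which p53 binds as a pair. A match was found in 4 of the 6 promoters, against 6.56% of 27457 promoters of the same length. These 4 are shown because they hold a match to the motif of p53, by which the 7 genes were grouped. The match is in capitals, 5′ to 3′ on the strand of the gene.
Cdkn1a (chr20:7150682-7150931, + strand): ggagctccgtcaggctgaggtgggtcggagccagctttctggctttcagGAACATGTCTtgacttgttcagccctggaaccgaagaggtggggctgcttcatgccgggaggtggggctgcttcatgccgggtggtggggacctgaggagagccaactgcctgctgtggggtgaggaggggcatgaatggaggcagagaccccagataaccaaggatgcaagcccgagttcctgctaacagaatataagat
Gadd45a (chr4:97486800-97487049, - strand): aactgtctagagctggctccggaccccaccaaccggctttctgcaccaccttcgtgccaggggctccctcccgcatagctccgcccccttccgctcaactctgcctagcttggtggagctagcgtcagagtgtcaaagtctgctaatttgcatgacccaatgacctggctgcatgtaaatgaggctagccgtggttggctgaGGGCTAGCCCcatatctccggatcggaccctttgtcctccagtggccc
Ccng1 (chr10:25684877-25685126, - strand): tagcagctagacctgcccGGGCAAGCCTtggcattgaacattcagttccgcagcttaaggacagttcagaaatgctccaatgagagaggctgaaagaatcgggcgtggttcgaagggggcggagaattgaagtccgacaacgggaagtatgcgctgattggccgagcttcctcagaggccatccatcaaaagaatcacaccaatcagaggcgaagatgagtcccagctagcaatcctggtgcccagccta
Sesn1 (chr20:46948469-46948718, + strand): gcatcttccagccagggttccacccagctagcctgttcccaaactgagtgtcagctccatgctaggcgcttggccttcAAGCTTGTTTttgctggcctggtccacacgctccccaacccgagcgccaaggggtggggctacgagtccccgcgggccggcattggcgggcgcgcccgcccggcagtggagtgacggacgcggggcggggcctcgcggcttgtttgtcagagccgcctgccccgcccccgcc
The match lay 201 to 192 bases before the start in Cdkn1a, 48 to 39 before it in Gadd45a, 232 to 223 in Ccng1 and 172 to 163 in Sesn1. A pair of matches at most 13 bases apart was found in none of the 6 promoters, and in 0.0364% of all. The letters ACGTG (in 16.9% of all promoters) were found in the promoter of Gadd45b alone, and TATAAA (13.1%) and TGANTCA (6.36%) in none of the 6. A match is a description of the letters in this window, which leaves out introns and distant sites, and the RefSeq starts were not compared with the gene models of the count table. Of the 4 genes with a match, Ccng1 and Sesn1 fell with MI, and Cdkn1a and Gadd45a exceeded their MI level in iCarP+/Light+ rats.

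Total counts on genes ranged from 14064414 to 17136958 per rat, and 3 counts, the floor taken for detection, corresponded to 0.144 to 0.228 CPM (counts relative to the library size as scaled by edgeR's TMM method). This floor covers counting error only. All levels below are TMM-normalized CPM, listed for Sham rats 1, 2, 3 and 5, MI rats 1, 3, 4 and 5 and iCarP+/Light+ rats 1, 2, 4 and 5, and differences are log2 fold changes from edgeR's quasi-likelihood test, adjusted by Benjamini-Hochberg over the 15101 genes with a threshold of 0.05. All 9 cardiomyocyte markers measured were present in every rat and fell with MI. Their summed level was 50887 to 56084 CPM for Sham, 3487 to 6965 for MI and 2921 to 8052 for iCarP+/Light+. Of 8 neutrophil markers 6 were tested, all 6 of them higher with MI and higher again in iCarP+/Light+ rats, and the list summed to 7.37 to 11.5 CPM for Sham, 325 to 628 for MI and 2204 to 6629 for iCarP+/Light+. Macrophage markers, with Lyz2 most of the sum in both groups with ligation, added up to 445 to 702, 3820 to 6670 and 2872 to 4648 CPM in the same order. Of the 8, 6 were higher with MI, and between MI and iCarP+/Light+ Adgre1 was higher while Mrc1 and C1qa were lower. Red blood cell markers summed to 7950 to 10690, 2525 to 7033 and 6256 to 17636 CPM, with 5 of 6 tested lower with MI and 4 of 6 higher in iCarP+/Light+ against MI. Lymphocyte markers summed to 12.4 to 20.7, 85.4 to 220 and 27.1 to 64.4 CPM, with 4 of 7 higher with MI and then 2 of 7 lower. Fibroblast markers (8606 to 10693, 2732 to 3153 and 1418 to 3064 CPM) and endothelial markers (1613 to 1793, 688 to 1087 and 918 to 1034 CPM) were lower with MI in 6 of 8 and 6 of 6 tested, while the fibroblast marker Postn was higher, and between MI and iCarP+/Light+ 1 fibroblast marker was called higher and no endothelial one. The endothelial marker Cldn5 had 0 counts in all 12 rats. Lactotransferrin (Ltf), a neutrophil granule marker, had 0 counts in all 4 iCarP+/Light+ rats and in 3 of 4 rats of each other group. Ngp, the other neutrophil marker not tested, did not rise, at 0.0683 to 1.01 CPM for Sham, 0.192 to 0.270 for MI and 0.125 to 0.474 for iCarP+/Light+. Camp, among the 6 tested, was near the floor for Sham (0 to 0.221 CPM) and 22.7 to 46.3 CPM for iCarP+/Light+. Mitochondrial genes held 22.8% to 28.9% of counts for Sham, 8.52% to 11.5% for MI and 7.14% to 14.2% for iCarP+/Light+. In bulk tissue, fewer cells of a type and less RNA per cell cannot be told apart, and the part of these shifts in cell type markers in the results on the 7 genes was not tested.

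From Sham to MI, 2 of the 7 genes rose, 2 fell and 3 did not pass the test. Cdkn1a and Gadd45b rose about 3-fold, Ccng1 and Sesn1 fell about 4-fold, and Mdm2, Gadd45a and Tp53inp1 had log2 fold changes between -0.11 and -0.08. Over all genes tested, 30.2% were called higher and 33.6% lower in this comparison, 63.8% together, so a count of 4 of 7 is close to that share. The groups did not overlap in the same 4 of 7 genes, and in 59% of all genes. In iCarP+/Light+ against MI rats, 4 of 7 were higher (Mdm2, Cdkn1a, Gadd45a and Gadd45b), none was lower and 3 did not pass the test, where 11.6% of all genes were called higher and 2.01% lower, 13.6% together. Of the 4, Cdkn1a, Gadd45a and Gadd45b had no overlap between the groups, which 16.4% of all genes had. Under scaling by total counts alone, the calls were 4 higher and 2 lower with MI, and 3 higher and 1 lower (Sesn1) from MI to iCarP+/Light+. Of the 15101 genes, that scaling called 7707 higher and 2776 lower with MI, then 1204 higher and 2722 lower. With TMM, log2 fold changes of the 7 genes had their median at -0.10 from Sham to MI, beside -0.06 over all genes, and at 0.68 from MI to iCarP+/Light+, beside 0.01. From Sham to iCarP+/Light+, a comparison that shares its groups with the other two, 4 of 7 were higher and 2 lower, where 33.5% and 33% of all genes were (66.5% together), and 5 of 7 had no overlap, as did 63.5% of all genes.

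**Figure D1:**
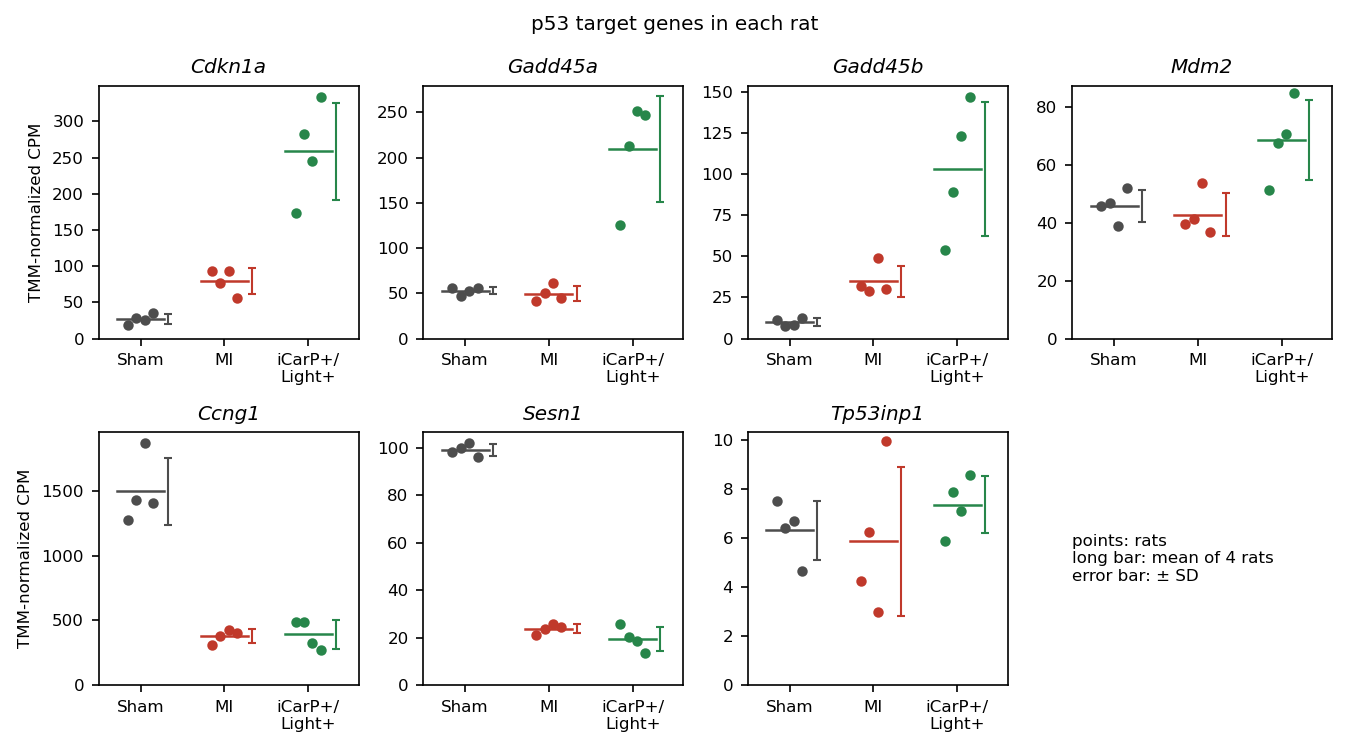
Expression level of the 7 genes in each rat, in TMM-normalized CPM on linear axes that start at 0. Points are rats, long bars are means of 4 rats and error bars are ± SD. Cdkn1a, Gadd45a and Gadd45b were highest in the 4 iCarP+/Light+ rats, Ccng1 and Sesn1 were highest in the 4 Sham rats, and the groups overlapped in Tp53inp1.

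Cdkn1a (ENSRNOG00000000521, chromosome 20 from 6351458 to 6358864 of rn6) was measured at 18.1, 28.4, 26.2 and 35.6 CPM for Sham, 93.0, 76.2, 93.1 and 55.7 for MI, and 174, 283, 245 and 333 for iCarP+/Light+ rats. The groups formed 3 steps without overlap, Sham lowest and iCarP+/Light+ highest. Means were 27.1 ± 7.22 (SD, n = 4), 79.5 ± 17.7 (SD, n = 4) and 259 ± 67.2 CPM (SD, n = 4). The rise from Sham to MI was 1.55 on the log2 scale (2.94-fold, standard error 0.24, adjusted p = 9.3e-05, edgeR), and that between MI and iCarP+/Light+ was 1.70 (3.25-fold, standard error 0.24, adjusted p = 3.75e-04, edgeR). From Sham to iCarP+/Light+ the level was 9.56-fold higher (adjusted p = 2.38e-07, edgeR). Among the treated rats, rat 1 had the lowest and rat 5 the highest p21 transcript.

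Gadd45a (ENSRNOG00000005615, chromosome 4 from 97782512 to 97784842) encodes a small acidic protein of the growth arrest and DNA damage family. It stood at 55.7, 47.5, 52.5 and 55.3 CPM for Sham, 41.9, 50.6, 61.7 and 44.6 for MI, and 125, 213, 251 and 247 for iCarP+/Light+ rats. Sham and MI rats overlapped, and every iCarP+/Light+ rat was above both groups. With MI it changed by -0.08 on the log2 scale (95% interval -0.51 to 0.34, adjusted p = 0.721, edgeR), and between MI and iCarP+/Light+ by 2.07 (4.2-fold, standard error 0.20, adjusted p = 2.59e-05, edgeR), the largest of the 7 in that comparison. Against Sham, iCarP+/Light+ rats were 3.96-fold higher (adjusted p = 2.02e-06, edgeR).

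Gadd45b (ENSRNOG00000019822, chromosome 7 from 11646269 to 11648322), the paralogue of Gadd45a that is also induced by inflammatory signals, followed the steps of Cdkn1a. Its levels were 11.4, 7.51, 8.50 and 12.8 CPM for Sham, 31.8, 28.7, 48.8 and 29.9 in MI, and 53.6, 88.8, 123 and 146 in iCarP+/Light+ rats. No rat of one group overlapped with another group, although iCarP+/Light+ rat 1 was close to MI rat 4. The level was 3.46-fold higher in MI than in Sham (log2 fold change 1.79, standard error 0.30, adjusted p = 1.57e-04, edgeR) and 2.96-fold higher in iCarP+/Light+ than in MI (log2 fold change 1.56, standard error 0.28, adjusted p = 0.00235, edgeR). Its mean of 103 CPM in iCarP+/Light+ rats had an SD of 40.6 (n = 4), the widest relative spread of the 7 genes in that group.

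Mdm2 (ENSRNOG00000006304, chromosome 7 from 60719066 to 60743328) was measured at 45.6, 46.8, 38.7 and 51.9 CPM for Sham, 39.5, 41.4, 53.6 and 36.7 for MI, and 51.3, 67.4, 70.7 and 84.7 for iCarP+/Light+ rats. Of the iCarP+/Light+ rats, 3 were above all others and rat 1 lay within the range of MI and Sham. Its log2 fold change with MI was -0.10 (95% interval -0.44 to 0.25, adjusted p = 0.619, edgeR), and that between MI and iCarP+/Light+ was 0.68 (1.6-fold, standard error 0.16, adjusted p = 0.0121, edgeR). The latter call was lost without iCarP+/Light+ rat 5 (0.48, adjusted p = 0.0825, edgeR) and with libraries scaled by total counts alone (0.41, adjusted p = 0.0533, edgeR). Against Sham the difference was 0.58 (adjusted p = 0.00601, edgeR).

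Ccng1 (ENSRNOG00000003256, chromosome 10 from 25903911 to 25910325) had by far the highest counts of the 7 genes in Sham rats, at 1276, 1428, 1871 and 1406 CPM. In MI rats it was 306, 375, 429 and 399, and in iCarP+/Light+ rats 485, 488, 326 and 267. Both groups with ligation were below every Sham rat and overlapped with each other. Cyclin G1 transcripts fell by 1.99 on the log2 scale with MI (3.96-fold lower, standard error 0.21, adjusted p = 3.37e-06, edgeR). Between MI and iCarP+/Light+ it differed by a log2 value of 0.05 (95% interval -0.38 to 0.49, adjusted p = 0.901, edgeR), within the spread between rats, and its sign turned under total-count scaling (-0.21).

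Sesn1 (ENSRNOG00000000302, chromosome 20 from 46667121 to 46758305) was the steadiest of the 7 in Sham rats, at 98.1, 99.9, 102 and 96.0 CPM. It was 21.1, 23.8, 25.7 and 24.3 in MI and 25.6, 20.4, 18.6 and 13.4 in iCarP+/Light+ rats. The fall from Sham to MI was 4.17-fold (log2 fold change -2.06, standard error 0.16, adjusted p = 2.98e-07, edgeR). Between MI and iCarP+/Light+ it differed by a log2 value of -0.28 (95% interval -0.62 to 0.05, adjusted p = 0.287, edgeR), with 3 of 4 iCarP+/Light+ rats below every MI rat. It passed the threshold with total-count scaling (-0.54, adjusted p = 0.0344, edgeR) and without iCarP+/Light+ rat 1 (-0.44, adjusted p = 0.0461, edgeR). Relative to the median of all genes, it was -0.29 both with TMM and with total counts alone.

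Tp53inp1 (ENSRNOG00000007964, chromosome 5 from 24410863 to 24416888) was the lowest in counts, at 7.52, 6.42, 6.68 and 4.64 CPM for Sham, 4.26, 6.26, 2.96 and 9.95 for MI, and 5.89, 7.86, 7.11 and 8.58 for iCarP+/Light+ rats. The 4 MI rats spanned the values of both other groups. No comparison passed the test, with a log2 fold change of -0.11 from Sham to MI (95% interval -0.78 to 0.57, adjusted p = 0.777, edgeR) and 0.33 for iCarP+/Light+ against MI (-0.34 to 1.00, adjusted p = 0.571, edgeR). The latter moved to 0.11 without MI rat 4 and to 0.71 without MI rat 5. These were the widest intervals of the 7 genes in both comparisons.

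**Figure D2:**
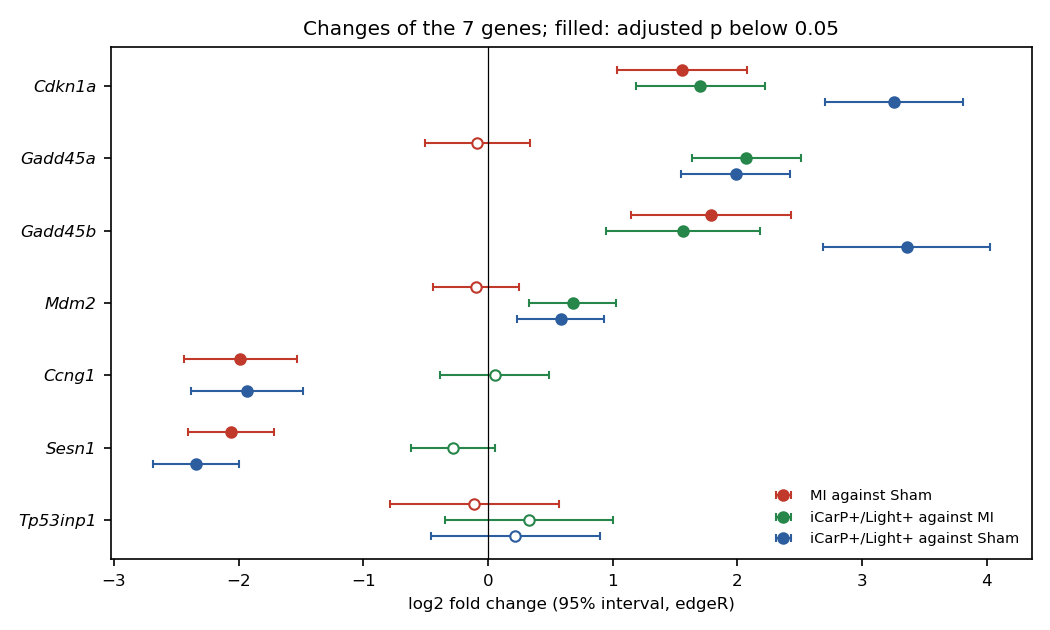
Log2 fold change of the 7 genes in the 3 comparisons, with 95% intervals from edgeR. Filled points passed the threshold of 0.05. Those of the iCarP+/Light+ against MI comparison are Cdkn1a (1.70), Gadd45a (2.07), Gadd45b (1.56) and Mdm2 (0.68), while for MI against Sham those of Ccng1 (-1.99) and Sesn1 (-2.06) lie left of 0.

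Per length, the order of the genes changed between the groups. In Sham rats Ccng1 led with 462 ± 80.0 RPKM (TMM-normalized reads per kilobase of gene length, scaled like CPM, SD, n = 4), followed by Gadd45a (42.5 ± 3.03), Sesn1 (28.7 ± 0.730), Mdm2 (15.6 ± 1.85), Cdkn1a (13.9 ± 3.70), Gadd45b (7.73 ± 1.89) and Tp53inp1 (6.20 ± 1.19). The first 3 were set apart from their neighbours in every rat, and the ranges of the last 4 overlapped from neighbour to neighbour. In MI rats Ccng1 (116 ± 16.1 RPKM) still led, and Cdkn1a (40.8 ± 9.10) and Gadd45a (40.1 ± 7.07) overlapped in the next place. In iCarP+/Light+ rats Gadd45a had the highest mean (168 ± 47.2 RPKM), followed by Cdkn1a (133 ± 34.5), Ccng1 (121 ± 34.7) and Gadd45b (79.2 ± 31.2), each of which overlapped with its neighbour. Sesn1 moved from the third place in Sham to the last in iCarP+/Light+ rats (5.65 ± 1.46 RPKM), where its range overlapped with that of Tp53inp1 (7.23 ± 1.13).

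The 4 iCarP+/Light+ rats differed among themselves in the same sense for several genes. Rat 1 had the lowest Cdkn1a, Gadd45a, Gadd45b and Mdm2 of its group and the highest Sesn1, and rat 5 had the highest Cdkn1a, Gadd45b and Mdm2 and the lowest Ccng1 and Sesn1. In the same rats the neutrophil markers summed to 2204 CPM in rat 1 and 6629 in rat 5, the cardiomyocyte markers to 8052 and 2921 CPM, and the mitochondrial share to 14.2% and 7.14%. The order was not the same for all genes or in all rats. In iCarP+/Light+ rat 2 the neutrophil markers summed to 5521 CPM, above the 3976 of rat 4. Cdkn1a had the same order (283 against 245 CPM), and over the 4 iCarP+/Light+ rats it ranked as the neutrophil sums did. Gadd45a (213 against 251 CPM), Gadd45b (88.8 against 123) and Mdm2 (67.4 against 70.7) were lower in rat 2 than in rat 4. Among MI rats, rat 5 had a neutrophil sum of 505 CPM and the lowest Cdkn1a (55.7 CPM), and rat 1 had 395 CPM and 93.0 CPM of Cdkn1a. MI rat 4 had the highest neutrophil sum of its group (628 CPM). It also had the highest Cdkn1a (93.1 CPM), Gadd45a (61.7), Gadd45b (48.8) and Mdm2 (53.6) of the MI rats. The part of the neutrophil markers in these levels was not tested. Without rat 5 the rise from MI to iCarP+/Light+ was 1.48 for Cdkn1a, 1.90 for Gadd45a and 1.27 for Gadd45b on the log2 scale, and without rat 1 it was 1.85, 2.25 and 1.78, each with an adjusted p below 0.05 in edgeR.

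**Figure D3:**
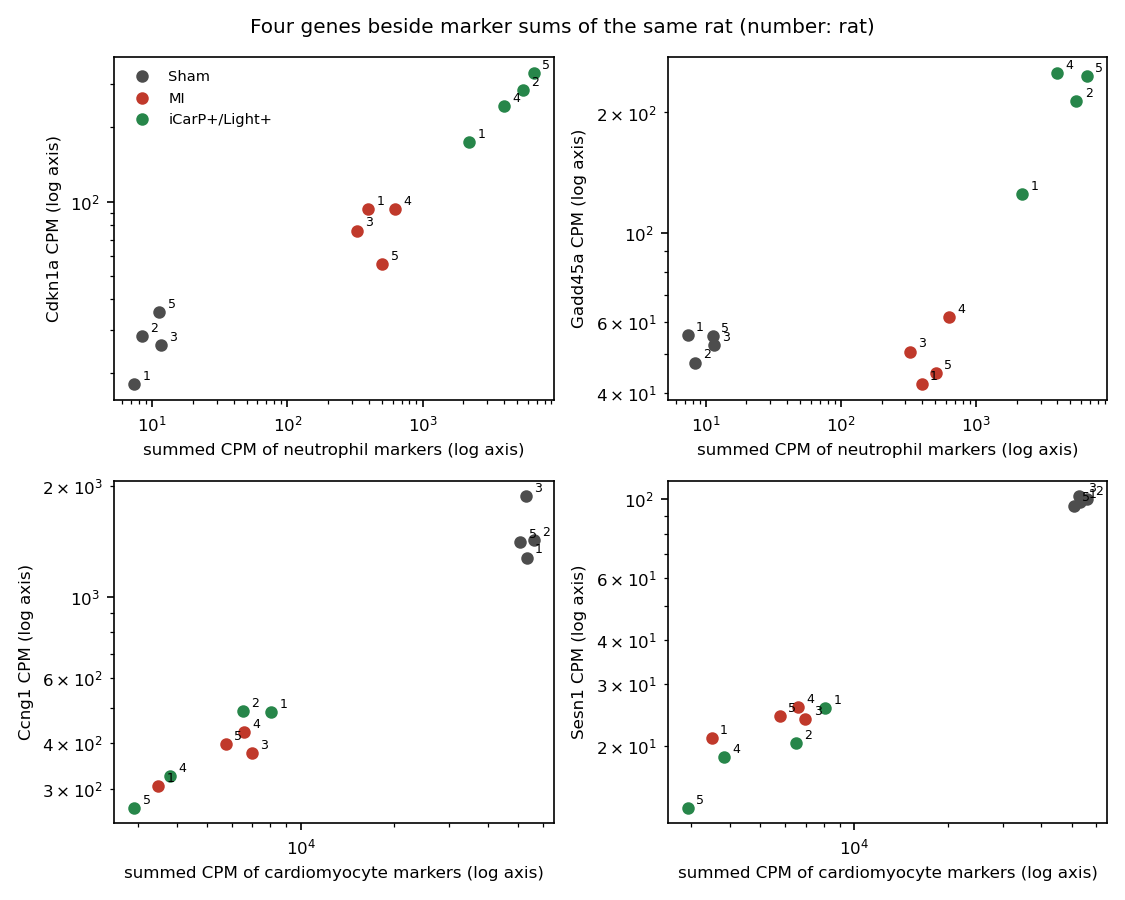
Cdkn1a and Gadd45a against the summed CPM of 8 neutrophil markers, and Ccng1 and Sesn1 against that of 9 cardiomyocyte markers, in CPM on log axes, with each point a rat labelled by its number. The 3 groups form separate clusters along the neutrophil axis, and along the cardiomyocyte axis the 4 Sham rats (50887 to 56084 CPM) lie apart from the 8 rats with ligation. Of the 4 iCarP+/Light+ rats, rat 5 has the lowest cardiomyocyte sum (2921 CPM), the lowest Ccng1 and the lowest Sesn1.

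Each gene was also set beside the paralogues of its family. Among the sestrins, which restrain mTORC1, Sesn2 went against Sesn1. Sesn2 rose from 19.0 ± 2.32 CPM for Sham to 35.3 ± 6.22 for MI and 132 ± 46.5 for iCarP+/Light+ rats (SD, n = 4 each), 1.86-fold (log2 0.90, adjusted p = 0.00395, edgeR) and then 3.75-fold (log2 1.91, adjusted p = 1.06e-04, edgeR). Sesn3 did not pass the test in any comparison and lay at 19.0, 16.5 and 15.6 CPM. The log2 ratio of Sesn1 to Sesn2 within a rat, in which library scaling nearly cancels, was 2.39 ± 0.199 for Sham, -0.55 ± 0.352 for MI and -2.72 ± 0.910 for iCarP+/Light+ rats (SD, n = 4 each), with no overlap between groups. Sesn1 was therefore above Sesn2 in Sham hearts and below it in iCarP+/Light+ hearts, also per length (28.7 RPKM of Sesn1 and 5.07 of Sesn2 in Sham, 5.65 and 35.4 in iCarP+/Light+ rats).

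Of the Gadd45 family, Gadd45g was highest in MI rats. Its levels were 22.4 ± 5.89 CPM for Sham, 92.6 ± 10.6 for MI and 65.7 ± 6.36 for iCarP+/Light+ rats (SD, n = 4 each), a rise of 2.04 with MI (standard error 0.17, adjusted p = 5.13e-07, edgeR). Its level in iCarP+/Light+ rats differed from MI by -0.50 on the log2 scale (adjusted p = 0.0612, edgeR), with every iCarP+/Light+ rat below every MI rat. Against Sham, Gadd45g was also higher in iCarP+/Light+ rats (1.55, adjusted p = 3.54e-06, edgeR). Differences between Gadd45g and its paralogues were not tested. The log2 ratio of Gadd45a to Gadd45b was 2.41 ± 0.261 for Sham, 0.53 ± 0.215 for MI and 1.07 ± 0.231 for iCarP+/Light+ rats (SD, n = 4 each). For both this ratio and that of the sestrins, the two-sided exact permutation test gave the smallest p that 4 rats against 4 allow, 0.0286, wherever groups did not overlap, and 0.0514 once adjusted by Benjamini-Hochberg for the 9 comparisons of 3 ratios. The ratio of Gadd45a to Gadd45b from MI to iCarP+/Light+ (a difference of 0.53) overlapped and gave an exact permutation p of 0.0571 (0.0857 adjusted). None of the 9 comparisons thus passed 0.05 after adjustment. The 3 ratios were chosen with earlier results of these data known, so these p-values are not tests of ratios fixed in advance.

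The relatives of Cdkn1a and Ccng1 fell with MI. Cdkn1b (p27) went from 75.7 ± 9.0 CPM for Sham to 41.7 ± 7.80 for MI and 81.2 ± 19.4 for iCarP+/Light+ rats (SD, n = 4 each), a log2 fold change of -0.86 (adjusted p = 0.00123, edgeR) followed by 0.96 (adjusted p = 0.00354, edgeR). Ccng2 (cyclin G2) had the same course, at 53.6 ± 3.92, 22.1 ± 6.73 and 52.6 ± 14.4 CPM, with log2 fold changes of -1.28 (adjusted p = 2.71e-04, edgeR) and 1.25 (adjusted p = 0.00227, edgeR). Neither differed from Sham in iCarP+/Light+ rats by the test, with 95% intervals of -0.30 to 0.50 for Cdkn1b and -0.51 to 0.45 for Ccng2. Cdkn1c (p57) was low throughout and fell by 1.97 with MI (adjusted p = 1.19e-04, edgeR). Tp53inp2, an autophagy factor, fell by 2.58 with MI, from 541 ± 33.1 to 90.7 ± 12.2 CPM (adjusted p = 3.96e-08, edgeR), beside no called change of Tp53inp1. Mdm4, the partner of Mdm2 in holding p53, fell by 0.47 with MI (adjusted p = 0.0397, edgeR), and the log2 ratio of Mdm2 to Mdm4 overlapped between all groups (exact permutation p of 0.0857 to 0.343).

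**Figure D4:**
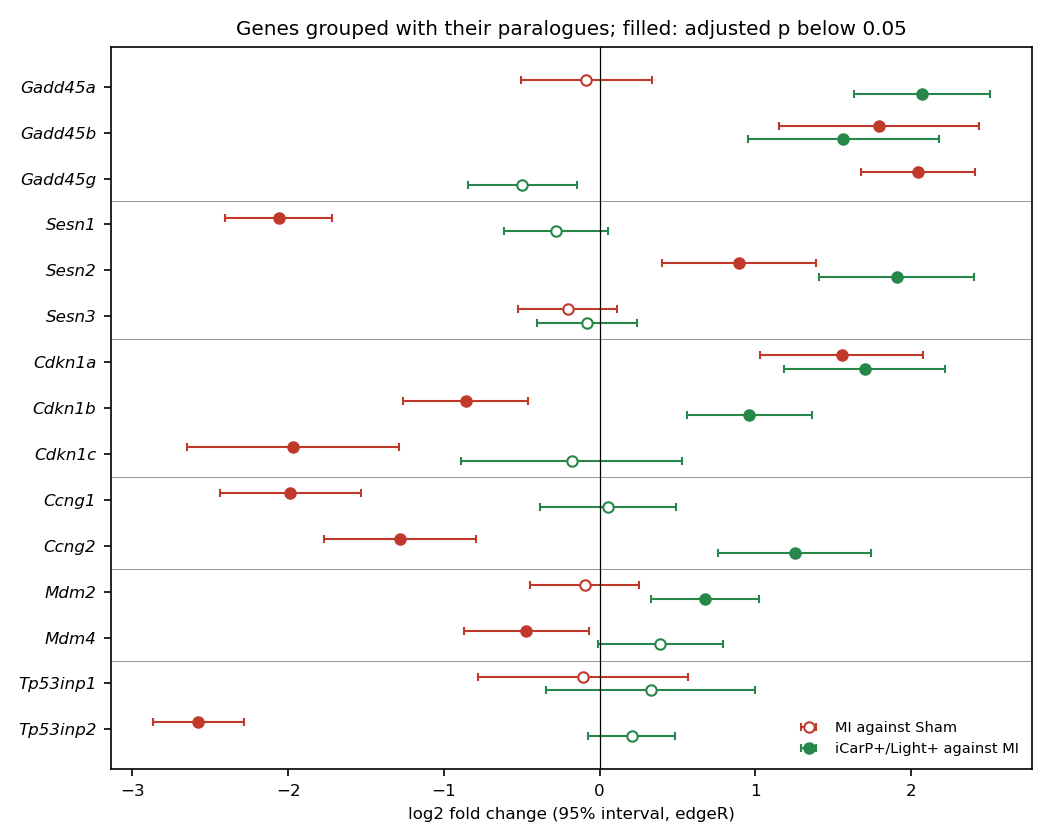
Log2 fold changes with 95% intervals (edgeR) of the 7 genes and their 8 paralogues, grouped by family, from Sham to MI and from MI to iCarP+/Light+. Filled points have an adjusted p below 0.05. Sesn1 (-2.06) and Sesn2 (0.90) lie on opposite sides of 0 from Sham to MI, and Cdkn1b and Ccng2 lie left of 0 with MI and right of it from MI to iCarP+/Light+.

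Of 82 further genes listed for the p53 pathway, 76 were in the table and 72 were tested (Cdkn2a, Rprm, Triap1 and Spata18 had too few counts). From Sham to MI 42 were higher and 13 lower (median log2 fold change 0.83, beside -0.06 over all genes), and from MI to iCarP+/Light+ 10 were higher and 2 lower (median -0.07, beside 0.01). These totals pool the genes that p53 activates with 18 genes of the cell cycle that it represses, which are given apart by role. The split of the latter count turned with scaling by total counts alone, which gave 7 higher and 23 lower, and 1204 and 2722 over all genes. It was 9 higher and 4 lower with DESeq2's size factors, where 1565 of all genes were higher and 457 lower, and 10 higher and 7 lower in DESeq2, where 1849 were higher and 763 lower. With MI, total counts gave 53 higher and 4 lower, where that scaling called 7707 of 15101 genes higher and 2776 lower. With TMM, 30.2% of all genes were called higher and 33.6% lower with MI, and 11.6% and 2.01% from MI to iCarP+/Light+, so the count of 10 and 2 of 72 in the latter is near the background. By role, targets in apoptosis had 10 of 15 genes higher and 2 lower with MI. Bid, which links death receptors to mitochondria, rose by 2.30 (adjusted p = 9.21e-07, edgeR), and Perp, a desmosome protein, fell by 2.75, from 67.0 ± 13.3 to 9.98 ± 3.30 CPM (adjusted p = 6.1e-06, edgeR). In the list of arrest targets 4 of 6 were higher, led by the kinase Plk3 (2.54, adjusted p = 1.67e-06, edgeR). The others were Sfn, Gtse1 (1.78) and Pcna (1.19). Gtse1 and Pcna are also expressed in dividing cells, and arrest itself was not measured. Targets in repair had 2 of 9 higher and 3 lower, among them Rev3l, the catalytic subunit of a translesion polymerase (-1.16, adjusted p = 9.37e-06, edgeR). Metabolic and secreted targets had 2 of 9 higher and 4 lower. Gdf15, a stress-induced cytokine, rose by 3.02 (adjusted p = 1.32e-05, edgeR), while Lpin1, a phosphatidate phosphatase, fell by 3.15 (adjusted p = 2.16e-06, edgeR) and Tigar, which lowers glycolytic flux, fell by 1.12 (adjusted p = 4.67e-06, edgeR). Among kinases and regulators of p53, 6 of 15 were higher and 4 lower, including Ppm1d (-0.51, adjusted p = 0.00135, edgeR) and Tp53bp1 (-0.55, adjusted p = 0.00142, edgeR).

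From MI to iCarP+/Light+, 3 of 15 apoptosis targets, 1 of 6 arrest targets, 2 of 9 repair targets and 3 of 9 metabolic and secreted targets were higher, and so was 1 of 15 regulators, where 11.6% of all genes were. None of the 39 targets was lower, where 2.01% of all genes were, so a count of 0 is near the background. The highest was Ddit4, an inhibitor of mTORC1 that is also induced by low oxygen, at 63.7 ± 10.7 CPM for Sham, 54.3 ± 7.93 for MI and 328 ± 106 for iCarP+/Light+ rats (SD, n = 4 each), a log2 rise of 2.59 from MI (standard error 0.23, adjusted p = 1.18e-05, edgeR). Fas, the death receptor, rose by 2.35 (adjusted p = 3.65e-05, edgeR), from 9.73 ± 1.90 CPM in MI to 49.7 ± 14.3. Pmaip1 (Noxa), which neutralizes the survival factor Mcl1, rose by 1.70 (adjusted p = 3.93e-04, edgeR) after a rise of 1.79 with MI. Gdf15 (1.54, adjusted p = 0.00515, edgeR), Btg2, an antiproliferative factor (1.33, adjusted p = 4.71e-04, edgeR), and Polk, a translesion polymerase (1.32, adjusted p = 0.00142, edgeR), were also higher. Of these 6 genes Ddit4 (-0.23, adjusted p = 0.37, edgeR) and Fas (0.31, adjusted p = 0.282, edgeR) did not pass the test with MI. Btg2 narrowly missed it (0.45, 95% interval 0.04 to 0.87, adjusted p = 0.0519, edgeR), with every MI rat above every Sham rat.

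Genes of the cell cycle that p53 and p21 are known to repress were higher with MI in 18 of 18 cases (20 were listed and 18 were in the table), beside 30.2% of all genes, with a median log2 fold change of 1.70 and a range of 1.08 to 2.51. Rrm2, a subunit of ribonucleotide reductase, had the largest rise (2.51, adjusted p = 3.34e-05, edgeR). Ccna2 (cyclin A2, 2.31, adjusted p = 1.09e-05, edgeR) overlaps Exosc9 on the other strand, so that without a known strand setting their reads cannot be told apart. Mcm3, of the replicative helicase, rose by 2.12 (adjusted p = 2.18e-07, edgeR). They rose beside a higher Cdkn1a in the same rats. In iCarP+/Light+ against MI rats the median was -0.59, all 18 estimates were below 0 and 2 genes passed the test as lower, beside 2.01% of all genes, Mcm6 (-0.45, adjusted p = 0.034, edgeR) and the mitotic kinase Aurkb, which is named here after its values were seen. The summed level of the list was 164 to 270 CPM for Sham, 594 to 750 for MI and 361 to 637 for iCarP+/Light+ rats.

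**Figure D5:**
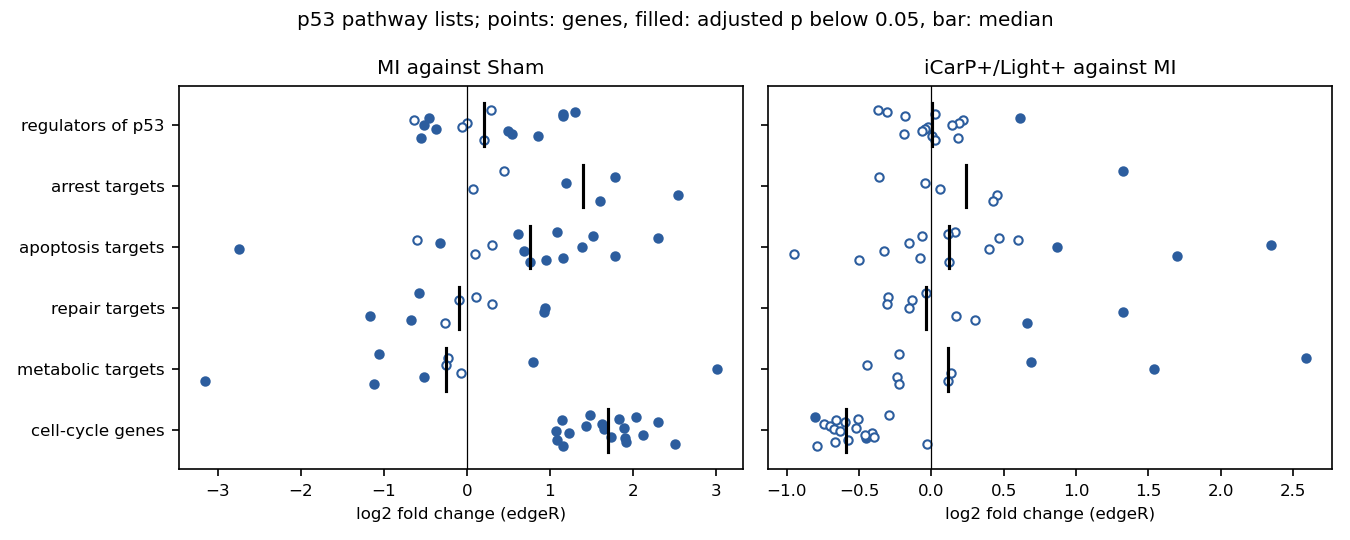
Log2 fold changes (edgeR) of 72 p53 pathway genes by role, from Sham to MI on the left and from MI to iCarP+/Light+ on the right, on axes of different range. Points are genes, filled with an adjusted p below 0.05, and bars are medians. The 18 cell-cycle genes lie right of 0 with MI (median 1.70) and left of 0 from MI to iCarP+/Light+ (median -0.59).

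Among 10721 protein-coding genes with a mean of at least 5 CPM, the genes most like each of the 7 over the 12 rats were taken by the root mean square difference of centred log2 CPM. For Sesn1 these were Eci3 (0.10) and Cyc1 (0.10), the latter the cytochrome c1 of respiratory complex III. Ccng1 was closest to Ppif (0.11), the mitochondrial cyclophilin D, and Nicn1 (0.15). Gadd45a was closest to Tmem38b (0.17), a potassium channel of the endoplasmic reticulum, and the histone demethylase Kdm3a (0.19), which was 34.6 CPM in MI and 149 in iCarP+/Light+ rats. Gadd45b was closest to Tspo (0.18), an outer mitochondrial membrane protein, and the kinase Stk17b (0.22), and Cdkn1a to Stk17b (0.23) and Rhbdf2 (0.25). Mdm2 was closest to Ssu72 (0.10) and Hexim1 (0.10), both of which act on RNA polymerase II, and Tp53inp1 to Bptf (0.20) and Hmbox1 (0.21). Among the 7 genes, Ccng1 and Sesn1 were the most alike pair (0.23), then Cdkn1a and Gadd45b (0.37), and Gadd45b and Sesn1 the least (2.42).

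Library scaling moved these values. Under total-count scaling the median log2 fold change over all genes was 0.52 with MI (TMM gave -0.06) and -0.25 between MI and iCarP+/Light+ (TMM gave 0.01). The log2 fold changes of Mdm2 and Gadd45a from Sham to MI then became 0.47 (adjusted p = 0.0111, edgeR) and 0.49 (adjusted p = 0.0273, edgeR), or -0.05 and -0.03 relative to that median. The directions of Cdkn1a, Gadd45b, Ccng1 and Sesn1 with MI, and those of Cdkn1a, Gadd45a, Gadd45b and Mdm2 from MI to iCarP+/Light+, were the same under each scaling.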

How the data were processed

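RNA-seq of the left ventricle of 12 rats (4 each of Sham, MI and iCarP+/Light+) was used. The authors deposited raw read counts per gene and rat, with other annotation such as gene length in bases. The submitters' processing notes name HISAT2, featureCounts and rn6, and versions, annotation release and strand setting are not given in the sources used here. The 7 genes, the lists and the paralogue ratios were chosen with earlier results of these data known. Counts were filtered with filterByExpr (minimum count 10), scaled by TMM and fitted over all 12 rats with edgeR 4.0.16 in R 4.3.3 (quasi-likelihood test, 1 mean per group, no block). CPM and RPKM were computed from the counts and the scaled library sizes, and log2 CPM with a prior count of 2. Standard errors and 95% intervals came from the F statistic. The paper's text names no model for the RNA-seq. Alternatives were DESeq2 size factors, total counts alone, DESeq2 1.42.0, limma-voom (limma 3.58.1), other filters and gene sets, fewer rats and a replicate block. Besides the 7 genes, their paralogues and the list counts, the pathway genes to be named were up to 6 per direction with the largest changes from Sham to MI and from MI to iCarP+/Light+, if the mean reached 5 CPM, the adjusted p passed 0.05 and rats of the groups did not overlap. Libraries of a group differed by a chi-square per gene of 14.9 to 120, so none was a copy. The methods were tested on simulated data. Rats are separate animals, and the labels name no batch. Plots were made with matplotlib 3.10.9, and promoters were taken from RefSeq (GRCr8). An item of the regulator list is not reported here by name.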

Additional observations from a re-analysis of the deposited data

Results flagged for a closer look

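Among 132 groups of 4 rats examined (the named genes, the ratios and the marker sums), 1 held a rat that stood apart by a gap above Dixon's 95% critical value, where 6.6 are expected by chance. Polk in Sham rat 5 was 7.30 CPM against 4.16 to 4.55 in the other Sham rats, with a ratio of gap to range of 0.841 on the log2 scale. None of the 7 genes was flagged.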

How the results depend on the processing

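Over 10 alternatives, 210 log2 fold changes of the 7 genes were recomputed, of which 199 stayed in the same direction and on the same side of the 0.05 limit, and with each of the 12 rats left out in turn 243 of 252 did. From Sham to MI, Mdm2, Gadd45a and Tp53inp1 (-0.10, -0.08 and -0.11) turned to 0.47, 0.49 and 0.49 with total counts alone and to 0.038, 0.051 and 0.038 with only the rats of those groups, and ranged from -0.22 to 0.010, from -0.20 to 0.022 and from -0.48 to 0.12 with a rat left out. From MI to iCarP+/Light+, Ccng1 (0.05) turned to -0.21 with total counts alone and to -0.0076 when every rat had to have 10 counts, and ranged from -0.070 to 0.13. In that comparison all genes called numbered 2051, but 3926 with total counts alone and 1298 with the replicate block, and pathway genes called numbered 12, but 30 and 7, and 7 (without iCarP+/Light+ rat 5) to 18 with a rat left out. The share of higher genes among those called moved with total counts alone from 47.3% to 73.5% from Sham to MI, from 85.2% to 30.7% from MI to iCarP+/Light+ and from 50.3% to 64.7% from Sham to iCarP+/Light+, and from MI to iCarP+/Light+ it was 70.8% in DESeq2 and 72.4% with 10 counts in every rat. Relative to the median of all genes under total counts, Mdm2, Gadd45a and Tp53inp1 were -0.05, -0.03 and -0.03 with MI and Ccng1 was 0.05 between MI and iCarP+/Light+, in the direction they had with TMM, and the cause of the other changes was not tested. With a rat left out, the ratio differences ranged from -1.98 to -1.80 (Gadd45a over Gadd45b, Sham to MI), from -1.44 to -1.24 (the same, Sham to iCarP+/Light+), from -3.07 to -2.80, from -2.54 to -1.80 and from -5.48 to -4.74 (Sesn1 over Sesn2, Sham to MI, MI to iCarP+/Light+ and Sham to iCarP+/Light+), and from 0.42 to 0.81 (Mdm2 over Mdm4, Sham to iCarP+/Light+), and without Sham rat 5 each of these 6 had an adjusted exact permutation p of 0.0429. Of these 6, Sesn1 over Sesn2 from MI to iCarP+/Light+ holds no Sham rat. Its own p could not change without Sham rat 5, and only the adjustment over the 9 comparisons did. Each of the 6 passed 0.05 in 1 of 12 such fits. A prior count of 0.5 changed none of the 9 ratio calls. Replicate numbers name different animals, and the deviations of the 9 same-numbered pairs correlated by -0.15 to 0.07, so the block shares only a number. It took the call of Mdm2 from MI to iCarP+/Light+ (0.63, adjusted p = 0.0522, edgeR) and no other call of the 7 genes. Depth was lowest for Tp53inp1, which had the fewest counts of the 7 genes.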
